A study of Caenorhabditis elegans with 4 samples.

Results

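The genes described here encode the conserved p38 and JNK-1 stress kinase modules of the nematode *Caenorhabditis elegans*. There are 8 of them: *tir-1*, *nsy-1*, *sek-1*, *pmk-1*, *pmk-2*, *pmk-3*, *jkk-1* and *jnk-1*. They were chosen by name, and every probe set (a group of oligonucleotides that reports 1 transcript or a few similar ones) to which the gene table of the array platform gives 1 of these symbols was taken. This gave 11 of the 22548 worm probe sets on the array, for 7 of the 8 genes, out of 17118 genes that the table names with a probe set of their own. No probe set carries the symbol *nsy-1*, and the level of *nsy-1* was not analysed here. The rule uses names only, but the genes were proposed with earlier results of these data known.

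In the p38 pathway of the worm, the adaptor TIR-1 activates the MAP kinase kinase kinase NSY-1. NSY-1 phosphorylates the MAP kinase kinase SEK-1, which in turn phosphorylates the p38 MAP kinase PMK-1, and active PMK-1 acts on transcription factors such as ATF-7 and SKN-1 to maintain the innate immune and oxidative stress responses of the intestine. PMK-2 and PMK-3 are the other p38 kinases, PMK-3 being best known from the DLK-1 cascade of axon regeneration, and JKK-1 is the MAP kinase kinase of JNK-1, a JNK that acts mainly in neurons. The mutant strain of the study lacks a different JNK, KGB-1, whose pathway protects animals from heavy metals. All of these kinases are switched on by phosphorylation, which an array does not measure, so the values below are RNA levels only.

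The study used Affymetrix GeneChips to compare wild-type animals (strain N2, Bristol) with *kgb-1(km21)* mutants, each incubated for 1 hour in water or in 1 mM copper sulfate. All animals were 1-day-old adults grown at 20 °C on *Escherichia coli* OP50, and no other allele or agent is given. RNA came from whole animals, and each of the 4 conditions was hybridized to 1 array, so no value has a replicate error. The comparisons ask whether copper changes the RNA of the stress kinases, and whether the KGB-1 pathway bears on that change. The mutant allele was carried by the untreated mutants as well.

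The signals are MAS5 intensities on a linear scale. The mean of each array, without the highest and lowest 2% of probe sets, was 500.1, and between 10411 and 10618 worm probe sets per array reached 100. A probe set was called measured where at least 1 array reached a signal of 100. Below, a signal that goes "from" one value "to" another goes from the array of untreated animals to that of copper-treated animals of the same genotype. The labels could not be checked from the targeted gene. The *kgb-1* probe set, 173843_s_at, went from 129 to 314 in the wild type and from 179.5 to 229 in the mutants. Where its probes lie relative to the km21 lesion is not given in the sources used here, and its suffix marks probes shared between similar transcripts. Markers of the main tissues were present, among them *vit-6* of the intestine with up to 37530, *unc-15* of muscle with up to 7777, *snb-1* of neurons with up to 4496 and *rme-2* of the germ line with up to 7399. The sperm markers *spe-9* and *spe-11* stayed below 100 while *msp-19* reached 4092. The summed signal of the sperm markers was 0.77 times as high in mutants as in wild-type animals without copper, and 0.76 times with it. For the epidermal markers it was 1.12 and 1.16 times. *col-19* was by far the brightest of these, with up to 6565.5 against at most 517 for *elt-3*, the next. The epidermal markers did not move together. With copper, 1 of their 5 probe sets was more than 2-fold higher in the mutants and 1 more than 2-fold lower. The part of the sperm and epidermal markers in the genotype ratios below was not tested.

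Of the 11 probe sets of the stress kinases, 7 were measured and 6 of them reached 100 on every array. They report *tir-1*, *sek-1*, *pmk-1*, *pmk-2* and *pmk-3*. The 4 probe sets of *jnk-1* and *jkk-1* stayed below 100 on all 4 arrays. Between-gene differences in signal were not read, because the brightness of a probe set depends on its probes as well as on its RNA.

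**Figure D1:**
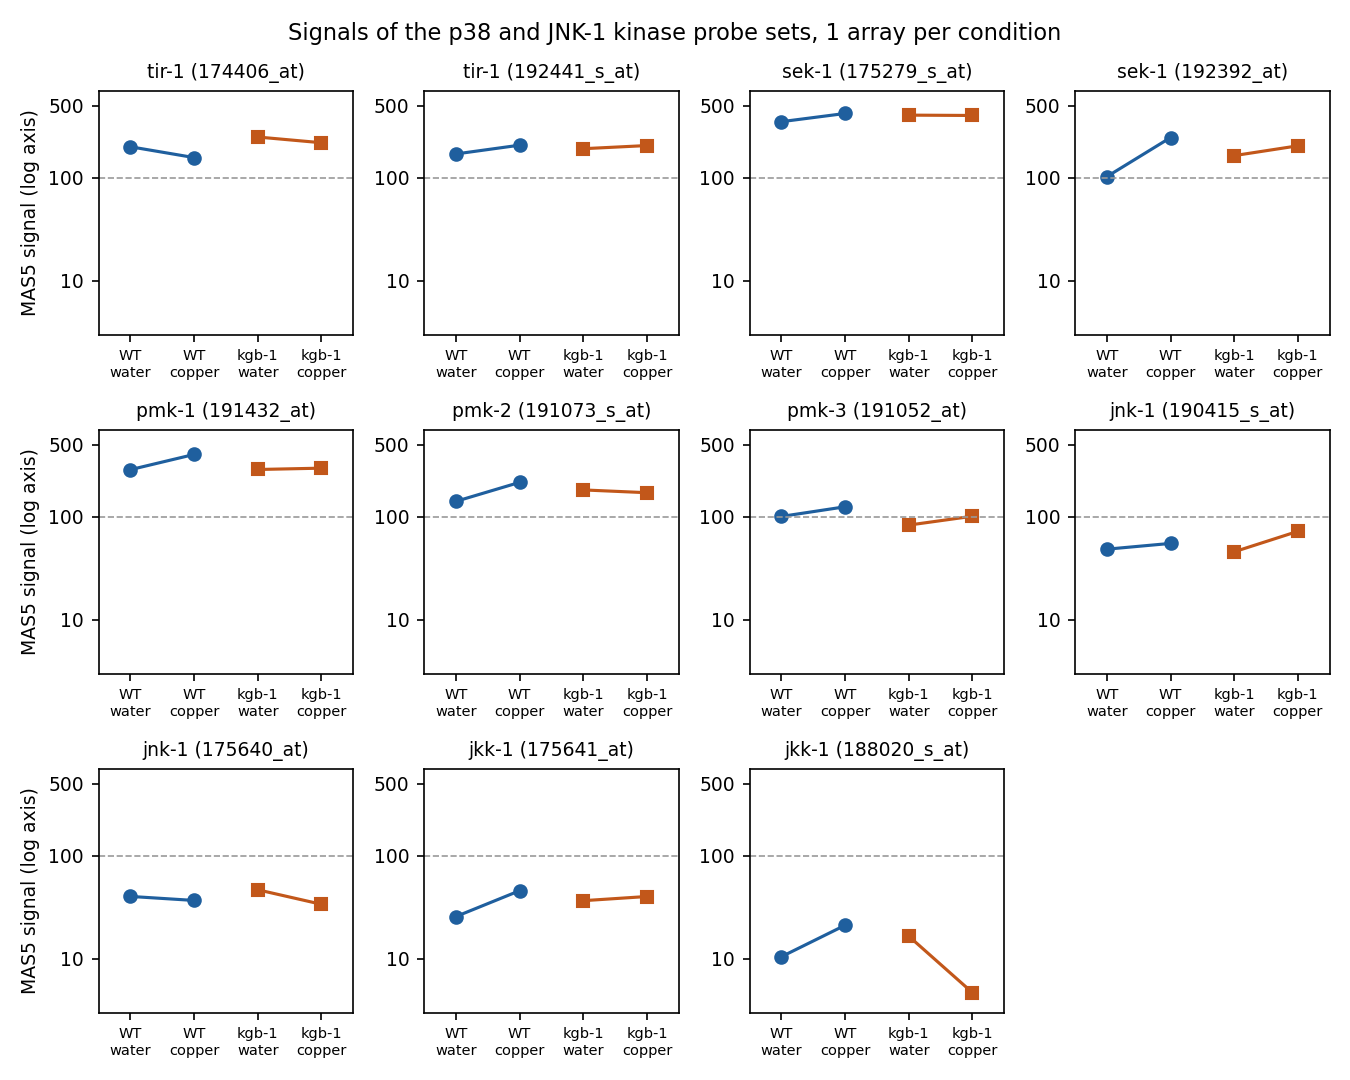
MAS5 signal (log axis) of each p38 and JNK-1 probe set without and with copper, in the wild type (circles) and *kgb-1* mutants (squares), 1 array per point, with a dashed line at 100. Signals of *sek-1* 192392_at were 102 and 245 in wild-type animals, and all 4 panels of *jnk-1* and *jkk-1* lie below the line.

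The largest copper ratio among the measured kinases was that of *sek-1*, the MAP kinase kinase above PMK-1, on the X chromosome. Its probe set 192392_at went from 102 to 245 in the wild type and from 164 to 204 in the mutants. Untreated wild-type animals had the lowest of the 4 signals and copper-treated wild-type animals the highest, with both mutant arrays between them. The signal was 2.39-fold higher with copper in wild-type animals (log2 1.26) and 1.24-fold higher in the mutants (log2 0.32). The log2 ratio of mutants to wild type was 0.68 without copper and -0.27 with it.

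This was the only one of the 7 measured kinase probe sets to pass a 2-fold threshold (ratio over 2 or under 0.5, brighter signal at least 100) in any of the 4 comparisons between arrays. Over the whole array, 2.11% of the probe sets were more than 2-fold higher with copper in wild-type animals, and 1.08% were more than 2-fold lower. These are 230 and 118 probe sets, and 165 and 191 where every array was scaled to the same median. In the mutants, these shares were 1.51% and 0.753%, and 0 of the 7 kinase probe sets were among them. Between mutants and wild-type animals, 0.601% of the probe sets were more than 2-fold higher and 0.934% lower without copper, and 1.19% higher and 1.44% lower with copper, again with 0 kinase probe sets. The wild-type copper ratio of *sek-1* 192392_at was high among probe sets of like brightness. Its untreated wild-type signal of 102 was close to the minimum of 100. The ratio was also picked as the largest of the 7, and the share given next does not allow for that choice. Of 3861 probe sets whose mean signal lay between 102 and 393, the range of the measured kinases, 1.35% were at least as high. The log2 ratios of the 18 hybridization control probe sets, whose RNA is spiked into each sample before hybridization, had an SD of 0.176 in that comparison. That spread holds error of hybridization and scanning but not a shift common to all controls, since it is taken about their own mean. It holds none of the error between cultures.

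The other *sek-1* probe set did not show a change of that size. Probe set 175279_s_at went from 349 to 419 in the wild type and from 404 to 401 in the mutants. Its log2 copper ratio was 0.26 in wild-type animals and -0.01 in the mutants. As in 192392_at, the untreated wild-type array was the lowest and the copper-treated wild-type array the highest. The wild-type copper ratios of the pair were 0.99 apart on the log2 scale. Among 1705 genes with 2 measured probe sets, the median distance was 0.26, and 4.69% of the genes had probe sets at least that far apart. The suffix of 175279_s_at marks probes that match more than 1 transcript, and which of the pair follows *sek-1* RNA more closely was not tested.

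*tir-1*, on chromosome III, encodes the TIR-domain adaptor and NADase at the top of the cascade. Its probe set 174406_at went from 199 to 157 in the wild type and from 248 to 218 in the mutants. Both copper-treated arrays were below the untreated array of their genotype, and both mutant arrays were above both wild-type arrays. The second probe set, 192441_s_at, went from 169.8 to 207 in the wild type and from 191 to 205 in the mutants. It was the brighter with copper in both genotypes, the reverse of 174406_at. In wild-type animals the log2 copper ratios of the pair were -0.35 and 0.28, which set them 0.63 apart, a distance that 15.95% of genes with 2 measured probe sets reached. A direction for *tir-1* could therefore not be given.

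*pmk-1*, the p38 kinase of the immune pathway, was measured by 1 probe set, 191432_at. It went from 286 to 401 in the wild type and from 287 to 295 in the mutants. The copper-treated wild-type array stood above the other three, which lay close together. The log2 copper ratio was 0.49 in the wild type and 0.04 in the mutants, and 12.9% of probe sets of like brightness were at least as high in wild-type animals. Copper-treated mutants were 1.36-fold lower than copper-treated wild-type animals.

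*pmk-2* gave a similar order. Its probe set, 191073_s_at, went from 141 to 215 in the wild type and from 182 to 171 in the mutants. The copper-treated wild-type array was again the highest, 1.53-fold above the untreated one (log2 0.61), whereas the log2 copper ratio in the mutants was -0.09. Among probe sets of like brightness, 8.65% were at least as high in wild-type animals. *pmk-3*, the p38 kinase of the axonal DLK-1 cascade, was close to the minimum on every array. It went from 101 to 125 in the wild type and from 82.9 to 101 in the mutants, with log2 copper ratios of 0.31 and 0.28, and the mutant array was the lower one under both treatments. Raising signals below 100 to 100 brought its mutant log2 copper ratio to 0.01. Its log2 ratio of mutants to wild type without copper went from -0.28 to -0.008.

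The 3 p38 genes lie next to each other on chromosome IV, in the order *pmk-3*, *pmk-2*, *pmk-1* (RefSeq annotation of assembly WBcel235), and are known to be transcribed together as an operon. Their flanking genes were measured as well. *islo-1*, next to *pmk-3*, went from 165 to 188 in the wild type and from 152 to 157 in the mutants. *faah-2*, on the other side next to *pmk-1* and a homolog of fatty acid amide hydrolases, went from 1998 to 3067 in the wild type and from 1978 to 2677 in the mutants. The log2 copper ratios along the chromosome from *islo-1* to *faah-2* were thus 0.19, 0.31, 0.61, 0.49 and 0.62 in wild-type animals. In the mutants they were 0.04, 0.28, -0.09, 0.04 and 0.44. The neighbour *faah-2*, outside the p38 group, had a wild-type ratio as large as that of *pmk-2*.

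*jnk-1*, also on chromosome IV, and *jkk-1*, on the X chromosome, were dim throughout. The *jnk-1* probe set 175640_at ranged from 33.8 to 46.7 over the 4 arrays and 190415_s_at from 45.7 to 72.1. The *jkk-1* probe set 175641_at ranged from 25.7 to 45.8 and 188020_s_at from 4.70 to 21.2. No fold is given for these, since all their signals were below 100. Both kinases act chiefly in neurons, and whether this bears on their dim signals was not tested. The highest signals of the neuronal marker genes ran from 111 (*unc-13*) to 4496 (*snb-1*). In bulk RNA, fewer cells of a type cannot be told apart from less RNA per cell. The summed signal of 9 neuronal marker genes was 1.03 times as high with copper in wild-type animals and 1.04 times in the mutants. The median log2 copper ratio of their measured probe sets was -0.02 in wild-type animals and -0.03 in the mutants.

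**Figure D2:**
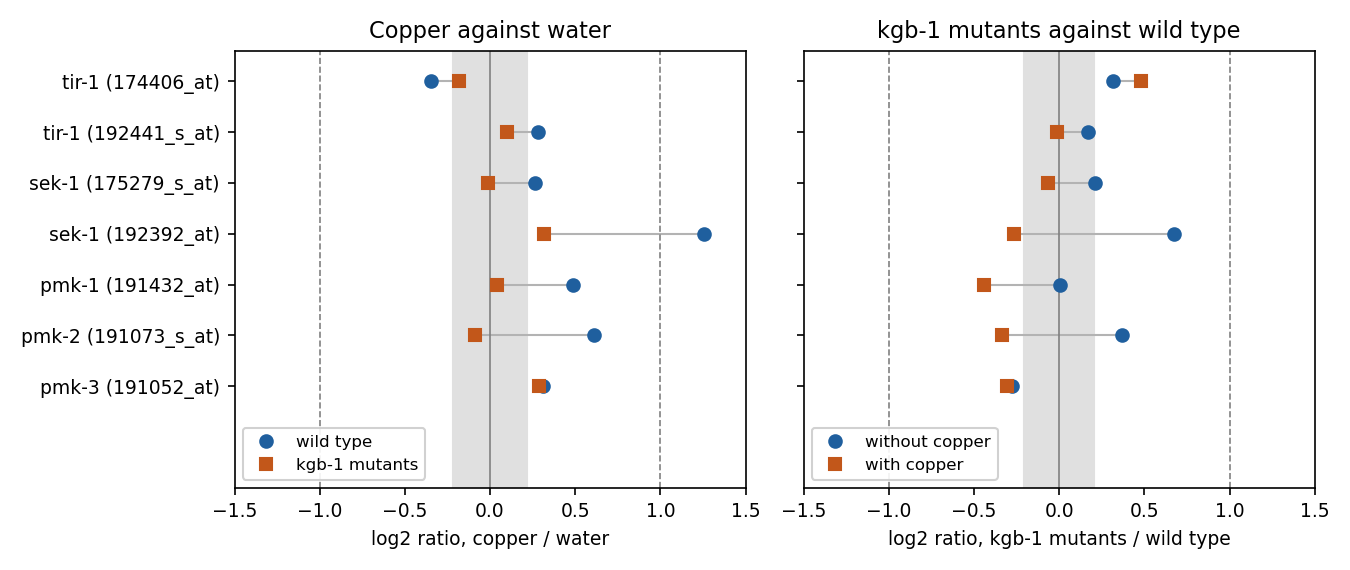
Log2 ratios of the 7 measured kinase probe sets, for copper against water (left; circles wild type, squares *kgb-1* mutants) and for mutants against wild type (right; circles without copper, squares with copper). The shaded band is 1 SD of the hybridization controls to each side of 0, the larger SD of the 2 comparisons in a panel, dashed lines mark 2-fold, and only *sek-1* 192392_at in wild-type animals lies past them at 1.26.

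As a group, 6 of the 7 measured kinase probe sets were above 0 for copper in wild-type animals, and the median log2 ratio was 0.31. Of all tested probe sets, 51.7% were above 0, with a median of 0.01. In the mutants, 4 of the 7 were above 0 with a median of 0.04, against 48.9% and a median of -0.01 over all tested. Without copper, 6 of the 7 were higher in mutants than in wild-type animals (median 0.21, against 0.01 over all tested), and with copper 1 of the 7 was (median -0.27, against -0.00). *pmk-1* counts among the 6 with a log2 ratio of 0.0049, which was -0.049 with equal medians and -0.061 after quantile normalization. Over probe sets of like brightness, the median log2 copper ratio was 0.05 in wild-type animals and 0.01 in the mutants. For mutants against wild-type animals it was 0.06 without copper and 0.03 with it. The 7 probe sets come from 5 genes, 3 of them neighbours, and the 4 dim probe sets are left out, so these counts describe the measured probe sets and carry no test.

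The copper ratio in wild-type animals minus that in the mutants gives the same data in 1 value per probe set. It was above 0 for 6 of 7 kinase probe sets, with a median of 0.27 on the log2 scale, against 52.8% and a median of 0.02 over all tested. The values were 0.94 for *sek-1* 192392_at, 0.70 for *pmk-2*, 0.45 for *pmk-1*, 0.27 for *sek-1* 175279_s_at, 0.18 for *tir-1* 192441_s_at, 0.03 for *pmk-3* and -0.16 for *tir-1* 174406_at. Over probe sets of like brightness this difference had an SD of 0.46, and over the hybridization controls 0.33. Its sign for *pmk-3* depended on the normalization. The log2 copper ratios of *pmk-3* in the wild type and the mutants were 0.18 and 0.25 with equal medians. After quantile normalization they were 0.20 and 0.25, so the mutant ratio was the higher in both settings. At least as high as *sek-1* 192392_at were 2.67% of the probe sets of like brightness, as high as *pmk-2* 6.11% and as high as *pmk-1* 16.2%. With 1 array per condition the difference between the genotypes in their response to copper could not be tested, and the 4 comparisons share arrays, so they are not independent of each other.

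**Figure D3:**
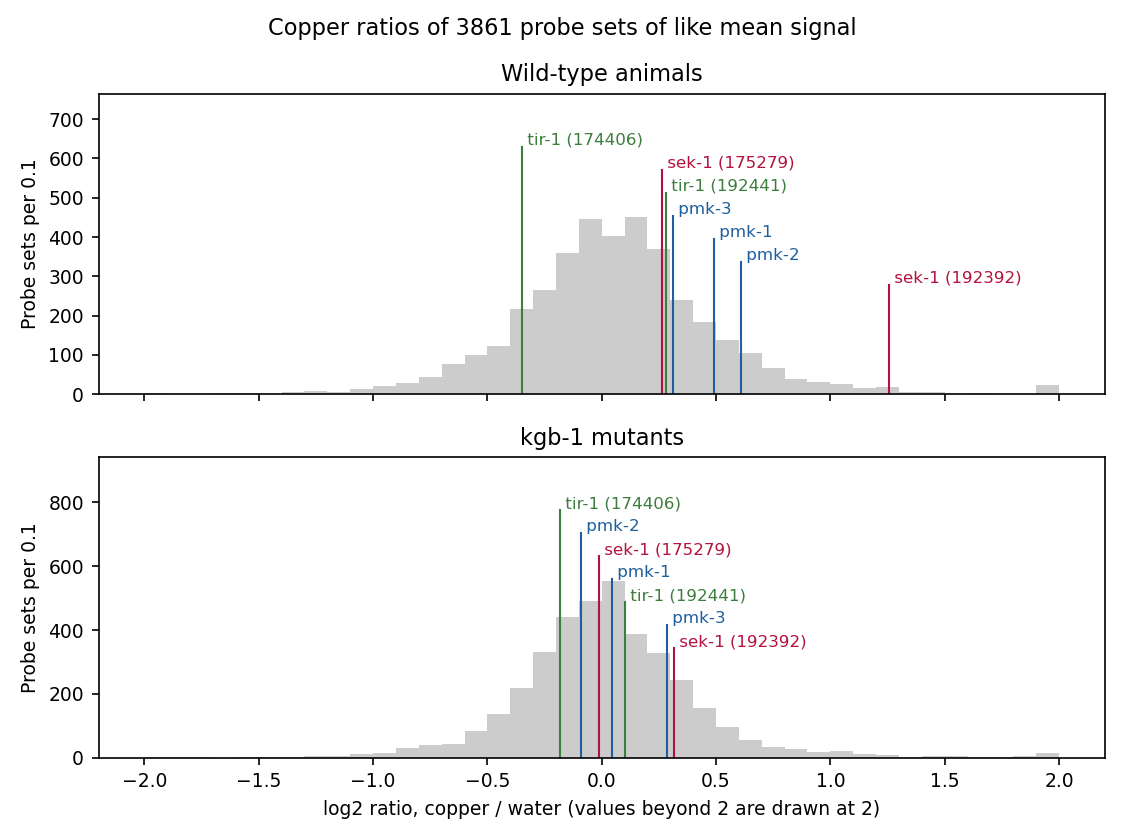
Log2 copper ratios of the 3861 probe sets whose mean signal lies in the range of the measured kinases (grey, number per 0.1 of log2 ratio), in wild-type animals (top) and *kgb-1* mutants (bottom), with the 7 kinase probe sets as vertical lines whose height has no meaning. In wild-type animals the line of *sek-1* 192392_at stands at 1.26 and those of *pmk-2* and *pmk-1* at 0.61 and 0.49, whereas in the mutants the 7 lines lie between -0.18 and 0.32.

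A test was possible only for the effect of copper shared by both genotypes and for the effect of genotype shared by both treatments. It used limma on log2 signals with both factors in the model, which leaves 1 residual degree of freedom. Over the 11266 probe sets tested, 1.18% were called higher and 0.346% lower with copper at an adjusted p under 0.05, and 0.0533% higher and 0.284% lower in the mutants. None of the 7 kinase probe sets was called for either effect. The smallest adjusted p for copper was that of *sek-1* 192392_at, with a log2 change of 0.79 ± 0.26 (SE, limma, adjusted p = 0.296), and it was higher with copper in both genotypes. The other 6 had limma adjusted p values up to 0.754. At an unadjusted p under 0.05, 1 of 7 kinase probe sets passed for copper, against 1439 of the 11266 tested, and 0 of 7 for genotype, against 1213 of the 11266. For genotype the smallest was that of *tir-1* 174406_at, 0.40 higher in the mutants on the log2 scale (limma, adjusted p = 0.474). This fit takes the same copper change for both genotypes and counts any difference between them as error, as for *pmk-1* and *pmk-2*. A p that misses the threshold does not show that their RNA stayed the same.

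The probe sets whose pattern over the 4 arrays was most like that of *sek-1* and *pmk-1* were sought among 9388 probe sets by the Euclidean distance between log2 signals, each centred on its own mean. Nearest to *sek-1* 192392_at was *prk-2*, which encodes a PIM-like protein kinase, with 132, 280, 200.3 and 246 in the wild type without and with copper and in the mutants without and with copper, at a distance of 0.12. *asfl-1*, a histone chaperone of the ASF1 family, and C30F12.5 followed at 0.16 and 0.18. Nearest to *sek-1* 175279_s_at were *tag-123* at 0.017, F25B4.8 and *cup-4*. Nearest to *pmk-1* was *gly-2*, an N-acetylglucosaminyltransferase, at 0.037, followed by Y48G9A.9 and Y39A3CL.3. With 4 arrays, many probe sets take such a pattern, and distances this small describe these arrays only.

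The genes that act around the p38 and JNK-1 modules were described from 6 lists, some of which share genes. The 11 listed regulators of p38 signaling (receptors, G proteins, phospholipases, kinases and a phosphatase) had 14 measured probe sets, of which limma called 0 for copper and 0 for genotype. Their median log2 copper ratio was -0.01 in wild-type animals and 0.17 in the mutants. The MAP kinase phosphatase gene *vhp-1*, whose product dampens PMK-1 and KGB-1, was the 1 regulator past 2-fold. Its probe set 193148_at went from 105 to 239 in the wild type, 2.28-fold higher, and from 94.4 to 154 in the mutants, a ratio of at least 1.54 (limma, adjusted p = 0.155 for copper). A second *vhp-1* probe set, 174338_at, went from 410 to 400.5 in the wild type and from 296 to 488 in the mutants, and so did not share that pattern. The brightest regulators were *rab-1*, a small GTPase of the secretory pathway, which went from 3697 to 3558 in the wild type and from 3378 to 3234 in the mutants on 190034_at, and *nipi-3*, a Tribbles homolog of the epidermal immune response. A second *rab-1* probe set, 190035_s_at, went from 2089.8 to 1473 and from 1888 to 2062. *nipi-3* went from 846 to 929 in the wild type and from 789 to 836 in the mutants on 175475_s_at (limma, adjusted p = 0.736 for copper). On 190554_at it went from 493 to 697 and from 528 to 765 (limma, adjusted p = 0.131).

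The 10 transcription factors and effectors of p38 signaling had 17 measured probe sets, and limma called 0 of them for either factor. Here 3 probe sets were more than 2-fold lower with copper in wild-type animals. Both probe sets of *elt-3*, an epidermal GATA factor, were among them. They went from 411 to 137 (175801_at) and from 342 to 119 (193640_s_at) in the wild type, and from 517 to 289 and from 329 to 196 in the mutants (limma, adjusted p = 0.053 and 0.084 for copper). Each copper-treated signal of *elt-3* was below its untreated one. Of the other epidermal markers, the cuticle collagen gene *col-19* had log2 copper ratios of -0.00 in the wild type and 0.04 in the mutants, *rol-6* of 0.35 and -0.16, and *dpy-7* of 0.17 and -0.25. The third was *hlh-30*, the TFEB homolog of autophagy and immunity, going from 722 to 307 in the wild type and from 810 to 634 in the mutants on 194161_s_at. A second *hlh-30* probe set, 174862_at, did not share that pattern, at 205 against 209.6 in the wild type and 259 against 259.99 in the mutants. Copper-treated mutants were more than 2-fold above copper-treated wild-type animals for *elt-3* 175801_at and for *hlh-30* 194161_s_at. *sta-2*, a STAT factor of the epidermis, went from 80.2 to 113 in the wild type and from 58.4 to 119 in the mutants, at least 1.19-fold higher there, and all its signals were near the minimum. *atf-7* and *skn-1*, the direct targets of PMK-1, had no probe set past 2-fold. The brightest of them, *atf-7* 173892_s_at, went from 1319 to 1171 in the wild type and from 1283 to 1411 in the mutants.

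The genes whose expression is known to depend on PMK-1 in the intestine gave the only calls of the 6 lists. The 11 listed genes have 13 probe sets, of which 12 were measured. Of these, limma called 4 higher with copper and 0 lower, and 1 lower in the mutants and 0 higher. Over all probe sets tested these shares were 1.18% and 0.346% for copper, and 0.284% and 0.0533% for genotype. The list was chosen with earlier results of these data known and is no independent evidence of a direction. The median log2 copper ratio was 0.44 in the wild type and 0.12 in the mutants, against 0.01 and -0.01 over all tested. More than 2-fold higher with copper were 3 of the 12 in the wild type and 5 in the mutants. Over the whole array these shares were 2.11% and 1.51%. The summed signal of the list was 1.42 times as high with copper in the wild type and 1.39 times in the mutants. The 4 limma copper calls include both probe sets of C17H12.8. The calls depended on the processing. None was made for either factor when limma estimated the error without a mean-variance trend or had 1 factor in the model at a time. With signals below 100 raised to 100, and also without suffixed probe sets, 1 copper call and 0 genotype calls were left, that of C17H12.8 184533_at. The setting without suffixed probe sets leaves out C17H12.8 184534_s_at and *lys-2* 183028_s_at themselves. It therefore says nothing about their calls, whereas *sysm-1* and *clec-67* were tested there and not called. *sysm-1*, which encodes a small secreted ShK-like peptide and is widely used as a PMK-1 reporter gene, went from 364 to 979 in the wild type and from 156 to 1068 in the mutants. It rose 2.69-fold with copper in the wild type and 6.84-fold in the mutants (log2 2.10 ± 0.30, SE; limma, adjusted p = 0.0295). The copper-treated signals of the 2 genotypes were close, and the untreated mutants were the lowest.

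C17H12.8, a gene of the secreted CUB-like family, rose on both of its probe sets. With 184533_at it went from 739 to 1529 in the wild type and from 479.8 to 1116 in the mutants, 2.07-fold and 2.33-fold higher with copper (limma, adjusted p = 0.00933). With 184534_s_at it went from 362 to 651 in the wild type and from 235 to 491 in the mutants, 1.80-fold and 2.09-fold higher (limma, adjusted p = 0.0279). In each genotype the copper-treated array was the higher one, and in each treatment the mutant array was the lower one. The C-type lectin gene *clec-67* went from 283 to 505 in the wild type and from 121 to 300.6 in the mutants, 1.79-fold and 2.49-fold higher with copper (limma, adjusted p = 0.0454). It was called in 5 of 11 settings, and not with a signal minimum of 200 (limma, adjusted p = 0.0708) or with none (adjusted p = 0.0625). These 4 probe sets were higher with copper in both genotypes, and *sysm-1* and *clec-67* were more than 2-fold lower in untreated mutants than in untreated wild-type animals. The log2 copper ratios of *sek-1* 192392_at, *pmk-1* and *pmk-2* in the same mutants were 0.32, 0.04 and -0.09.

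*lys-2*, a lysozyme gene, was the 1 immune probe set called for genotype. It went from 2922 to 3795 in the wild type and from 1544 to 1507 in the mutants, 1.89-fold lower without and 2.52-fold lower with copper in the mutants (limma, adjusted p = 0.0384), so both mutant arrays were below both wild-type arrays. *irg-5*, of the CUB-like family, went from 149 to 179 in the wild type and from 364 to 356 in the mutants. It was more than 2-fold higher in untreated mutants and was not called (limma, adjusted p = 0.0692). In 2 of 11 settings it was called higher in the mutants. *dod-22* went from 53.8 to 119 in the wild type and from 49.6 to 102 in the mutants, at least 1.19-fold and at least 1.02-fold higher with copper (limma, adjusted p = 0.260). The other 5 measured probe sets, of *irg-4*, K08D8.5, *clec-85* and *dod-24*, passed no threshold. *irg-4*, for example, went from 817 to 861 in the wild type and from 775 to 869 in the mutants. The PMK-1-dependent genes are intestinal, and the summed signal of the 8 intestinal marker genes was 1.10 times as high with copper in wild-type animals, 1.08 times in the mutants and 0.92 times as high in untreated mutants as in untreated wild-type animals. The yolk genes *vit-6*, with up to 37530, and *vit-2*, with up to 13903, were the brightest of these markers and weigh most in the sum. Over the 10 measured intestinal probe sets the median log2 ratio was 0.04, 0.11 and -0.15 in the same comparisons. The part of these markers in the values above was not tested.

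**Figure D4:**
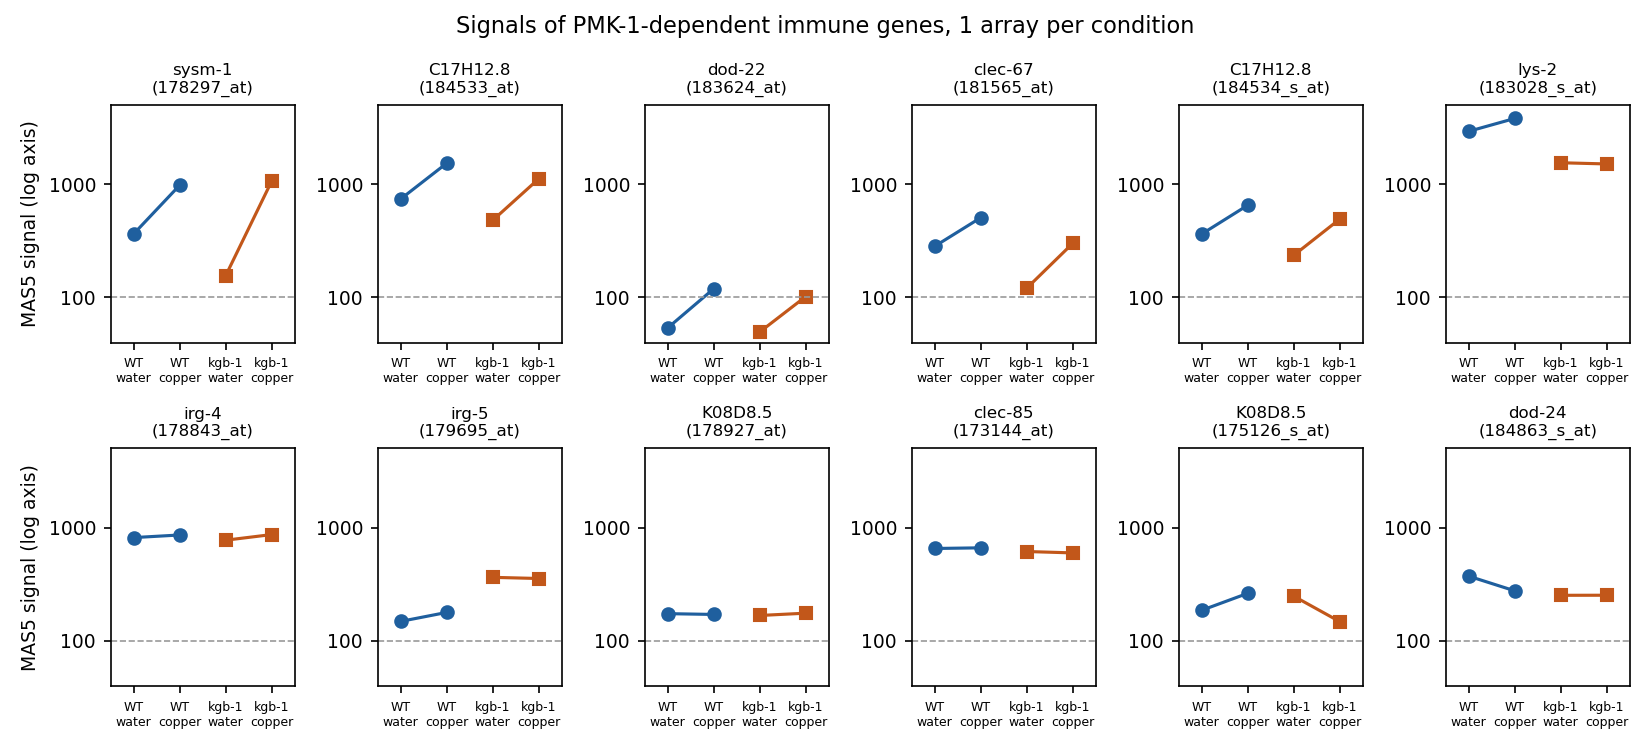
MAS5 signal (log axis) of the 12 measured probe sets of PMK-1-dependent immune genes, ordered by their limma copper change, in wild-type animals (circles) and *kgb-1* mutants (squares), 1 array per point, with a dashed line at 100. *sysm-1* ran from 364 to 979 in wild-type animals and from 156 to 1068 in the mutants, whereas *irg-4* stayed between 775 and 869.

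The remaining lists gave no limma call for either factor. The PMK-3 axon cascade (*dlk-1*, *mkk-4*, *mak-2*, *uev-3*, *cebp-1*, *rpm-1* and *fsn-1*) had 7 measured probe sets with a median log2 copper ratio of 0.02 in wild-type animals and -0.01 in the mutants, and none passed 2-fold in any comparison. Its brightest, the F-box gene *fsn-1*, went from 2417 to 2162 in the wild type and from 2279 to 2528 in the mutants. The 7 listed partners of JNK-1, among them the scaffold gene *unc-16* and the kinesin gene *unc-116*, had 11 measured probe sets with medians of 0.01 and 0.09, and only *vhp-1* 193148_at passed 2-fold. *unc-116* 173829_at, the brightest, went from 3378 to 4161 in the wild type and from 3189.7 to 3465 in the mutants. The kinases of other MAP kinase cascades had 34 measured probe sets with medians of 0.15 and 0.08. The brightest was *mek-1*, the MAP kinase kinase of KGB-1, which went from 2937 to 2988 in the wild type and from 2503 to 2365 in the mutants. The *kgb-1* probe set itself was more than 2-fold higher with copper in wild-type animals, and *max-2*, a p21-activated kinase gene, was more than 2-fold higher in copper-treated mutants than in copper-treated wild-type animals, going from 931 to 718 in the wild type and from 1037 to 1672 in the mutants on 175287_at.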

How the data were processed

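The arrays were processed once by a company, with no replicates, and the intensities the authors deposited are linear MAS5 signals, 1 per probe set and array. The MAS5 version and any detection calls are not given in the sources used here. Probe sets were named through the gene table of the platform, matched to the RefSeq annotation of assembly WBcel235. Of 22625 probe sets, 77 were controls, 21653 were in that table, 887 had several symbols and were not named, and 20766 had 1 symbol.

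Ratios were taken from the signals as deposited. A ratio over 2 or under 0.5, with the brighter signal at least 100, was called 2-fold. Calls, counts and log2 ratios used the dimmer signal as deposited. Where it was below 100, the fold printed is a lower bound, taken against 100 in its place. *sta-2* in the mutants and *dod-22* in both genotypes thus passed 2-fold on deposited signals, with bounds below 2. With signals below 100 raised to 100, 142 probe sets were more than 2-fold higher with copper in wild-type animals and 75 lower. limma 3.58.1 (R 4.3.3) was fitted on log2 signals of the 11266 probe sets that reached 100 on any array, with copper and genotype in the model, a mean-variance trend (prior 5.19 degrees of freedom) and Benjamini-Hochberg adjustment over all of them. A difference between the strains' cultures that both treatments share counts as genotype. With 1 array per condition, the number of arrays limits the precision, and nothing measures the spread between cultures. The kinase genes were all named. Of each list, the probe sets called by limma or past 2-fold in any comparison were named, with the brightest probe set of the list and some further probe sets of genes so named, and the flanking genes and the 3 patterns nearest to those of *sek-1* and *pmk-1*. Members and lists were chosen with earlier results of these data known, so they are no independent support for any direction. The alternatives were other signal minimums (50, 200 or none), quantile normalization, equal medians, an offset of 32, signals below 100 raised to 100, only probe sets without a suffix, 1 factor at a time, and no trend.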

Additional observations from a re-analysis of the deposited data

Results flagged for a closer look

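Some kinase probe sets moved one way in 1 group and the other way in the other under the same contrast. With 1 array per condition none of these differences was tested. For copper, *pmk-2* had log2 ratios of 0.61 in wild-type animals and -0.089 in the mutants, and *sek-1* 175279_s_at of 0.26 and -0.011. For mutants against wild-type animals, without and then with copper, the log2 ratios were 0.68 and -0.27 for *sek-1* 192392_at, 0.21 and -0.064 for *sek-1* 175279_s_at, 0.37 and -0.33 for *pmk-2*, 0.0049 and -0.44 for *pmk-1*, and 0.17 and -0.012 for *tir-1* 192441_s_at. The values nearest 0 among these lie within the SD of the hybridization controls, which was 0.176 for copper in wild-type animals, 0.215 in the mutants, 0.205 for genotype without copper and 0.192 with copper.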

How the results depend on the processing

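No kinase probe set was called by limma under any of the 10 alternatives, and the smallest adjusted p among them ran from 0.192 to 0.459 for copper (*sek-1* 192392_at) and from 0.418 to 0.864 for genotype (*tir-1* 174406_at). The wild-type log2 copper ratio of *sek-1* 192392_at ran from 1.04 to 1.26 and stayed past 2-fold in each. Without a signal minimum, the kinase probe sets past 2-fold were 2 for copper in wild-type animals, 1 for copper in the mutants and 1 between genotypes with copper, in place of 1, 0 and 0, since dim *jkk-1* signals then count. The limma genotype change of *pmk-2* was 0.02, and -0.039 after quantile normalization (limma, adjusted p = 0.968). Of the log2 ratios between arrays, that of *pmk-1* between genotypes without copper was 0.0049 and turned to -0.049 with equal medians and -0.061 after quantile normalization, and that of *tir-1* 192441_s_at with copper went from -0.012 to 0.035 with equal medians. The counts of PMK-1-dependent immune probe sets, and their alternatives, were added after the data were seen. Of them 4 were called higher with copper, 3 with a signal minimum of 200 or none, 1 with signals below 100 raised to 100, 1 without suffixed probe sets, and 0 with copper alone in the model or with no trend. For those lower in the mutants, 1 was called, and 2 with equal medians. With signals raised to 100 or with a minimum of 200, 0 were called lower. Without suffixed probe sets 0 were called lower too, but that setting leaves out the *lys-2* probe set. It also leaves out C17H12.8 184534_s_at, which was among those called higher with copper. With genotype alone in the model or with no trend, 0 were called lower as well. *irg-5* was called higher in the mutants with equal medians and with a signal minimum of 50, and in no other setting. Over all settings *sysm-1* had limma adjusted p values of 0.00255 to 0.223, C17H12.8 184533_at of 0.00226 to 0.148, *clec-67* up to 0.520 and *lys-2* of 0.00221 to 0.244. Equal medians shifted all wild-type copper ratios by 0.13 on the log2 scale and changed the probe sets past 2-fold from 230 higher and 118 lower to 165 and 191. Over the whole array limma then called 179 higher and 138 lower for copper in place of 133 and 39, and 30 and 92 for genotype in place of 6 and 32. With no trend it called 30 and 10 for copper and 0 for genotype, with 1 factor at a time 65 and 25 and 0 and 2, and with signals raised to 100, 97 and 28 and 0 and 2. No paired analysis was possible because all 4 arrays carry the same replicate number, so the number gives no block. The limma fit already takes copper within genotype and genotype within treatment.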
